A study of Caenorhabditis elegans with 12 samples.

Results

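Bromhexine and genipin were set against each other in whole adults of Caenorhabditis elegans, gene by gene. The comparison used 8 of the 12 libraries of the study: 4 from worms on 100 µM bromhexine and 4 from worms on 200 µM genipin. The other 4 libraries came from worms on DMSO, the solvent of both compounds, and are given beside the results. All worms were wild-type N2 hermaphrodites, moved as young adults to agar plates with the compound and collected after 48 h, in 1 batch. The plates of every group also held FUDR, which blocks DNA synthesis and so keeps offspring from developing, and the controls carried it as well. The compounds were given at different concentrations, so compound and dose cannot be told apart in any difference below. The members were all genes that passed the filter on low counts, 13695 of the 46926 genes in the deposited table. Whether replicates were grown as independent cultures is not stated in the labels, and every p therefore reflects variation among these 4 libraries per group, which may be technical only.

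Bromhexine is a mucolytic drug. Genipin, an iridoid from plants, crosslinks amino groups, and in mammals it is known to block the mitochondrial carrier UCP2. Worms meet foreign compounds mainly in the intestine, where cytochrome P450 enzymes oxidise them, UDP-glucuronosyltransferases and glutathione S-transferases attach sugars or glutathione, and ABC transporters pump the products out. The epidermis secretes the collagen cuticle, which is built anew at each larval moult and maintained in the adult, and the germ line holds much of the RNA of an adult hermaphrodite.

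The libraries held 20349803 to 28051222 counts, and 16893 to 17650 genes had a count in each. Levels are CPM, counts scaled to library size with TMM factors, and differences are log2 fold changes of bromhexine over genipin with their standard error. Adjusted p comes from edgeR's quasi-likelihood test with Benjamini-Hochberg adjustment over the 13695 genes, and a gene was called when it was under 0.05. "Higher" and "lower" with no further word mean with bromhexine than with genipin, and values of single libraries follow the order of replicates 1 to 4. Over all tested genes, 54% of the variance in log2 CPM fell on the first principal component. On it the bromhexine libraries lay at 69.23, 61.74, 61.75 and 45.22, the genipin libraries at -14.56, -13.84, -43.6 and -31.88, and the DMSO libraries between -40.32 and -28.34. Summed marker levels of intestine, body wall muscle, pharynx, neurons, epidermis and germ line were at least 31.6 CPM in all 12 libraries. The 3 tested sperm markers together stayed at 0.35 to 3.59 CPM and the 5 tested embryo markers at 2.98 to 5.53 CPM.

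Many transcripts were present at different levels under the compounds, and the increases were fewer but reached further than the decreases. Of the 13695 genes, 4728 (34.5%) were called, 2057 (15%) higher and 2671 (19.5%) lower with bromhexine. At least 2-fold differences were found for 367 called genes that were higher (2.68%) and 892 that were lower (6.51%). At the far end the balance turned: 40 genes were called at least 16-fold higher and 16 at least 16-fold lower. The median log2 fold change was 0.369 among genes called higher, -0.791 among genes called lower and 0.004 among all tested genes. All 4 bromhexine libraries lay above all 4 genipin libraries for 1538 genes (11.2%) and below them for 2253 (16.5%). Without genipin replicate 1, 4144 genes (30.3%) were called, 1658 higher (12.1%) and 2486 lower (18.2%). With and without it 3909 genes (28.5%) were called in the same direction, and no gene was called in opposite directions. The count of higher genes was 1284 without bromhexine replicate 1, 1366 without bromhexine replicate 3 and 1310 without genipin replicate 3. With upper quartile scaling the split was 1476 higher and 3024 lower, 32.8% higher instead of 43.5%.

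**Figure D1:**
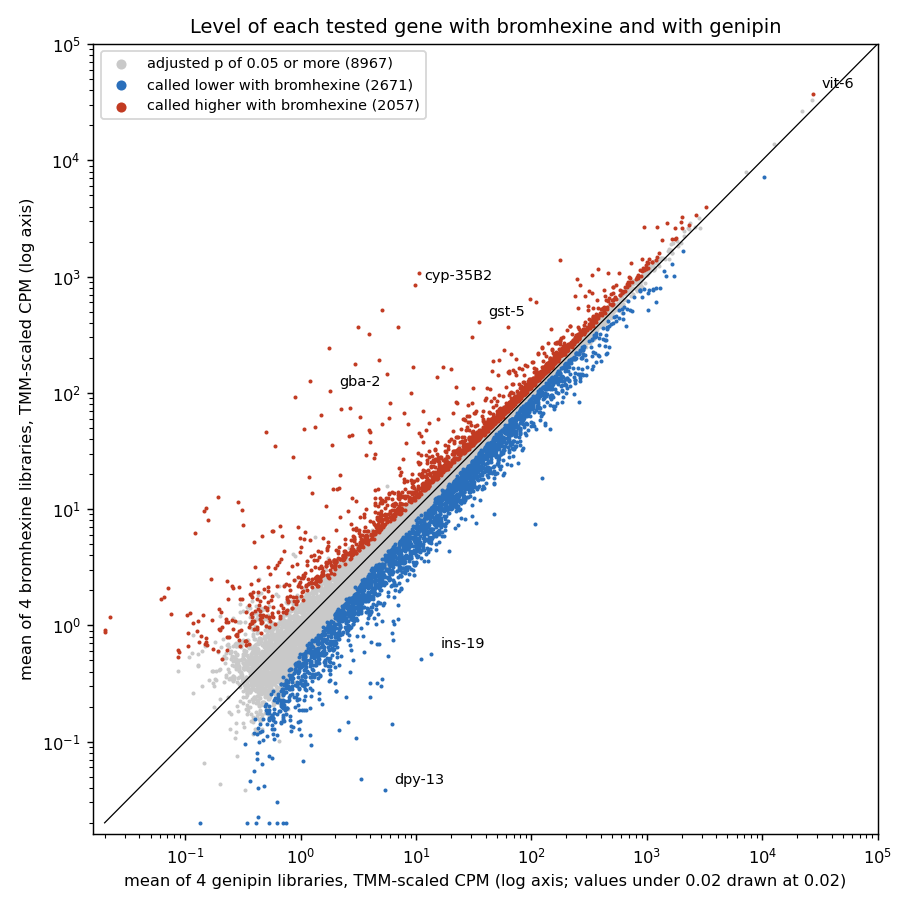
Mean TMM-scaled CPM of the 13695 tested genes over the 4 genipin libraries (horizontal) and over the 4 bromhexine libraries (vertical), both on log axes, with the line of equal levels. The 2057 genes called higher with bromhexine reach above the line at low genipin levels, while the 2671 called lower lie in a band below it.

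Against the shared DMSO libraries, many genes were called for bromhexine and few for genipin. Bromhexine against DMSO called 5581 genes (40.8%), 2602 higher and 2979 lower. Genipin against DMSO called 5 genes (0.0365%), 4 higher and 1 lower, and 671 genes (4.9%) had an unadjusted p under 0.05. DESeq2 called 31 genes for genipin against DMSO and limma voom 2. The comparisons share libraries, so their values are given side by side and were not correlated.

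The 10 genes named for the largest increases, ranked by the log2 fold change without genipin replicate 1 among genes with a mean of at least 5 CPM in the higher group, were low in the genipin libraries and at 8.86 CPM or more in every bromhexine library. They include the P450 genes cyp-35B2 and cyp-35B3, the gene tat-6, which codes for a P4-type ATPase of the phospholipid flippase family, and several protein-coding genes known only by a sequence name. On WBcel235, cyp-35B1 (chromosome V, start 3939032, end 3941237), cyp-35B2 (start 3942160, end 3944523) and cyp-35B3 (start 3945353, end 3947044) follow each other, with 922 and 829 bases between them. For cyp-35B2 the bromhexine libraries stood at 830.1, 898.2, 781.2 and 845.2 CPM, the genipin libraries at 29.7, 3.96, 4.2 and 1.48 and the DMSO libraries at 0.279, 0.314, 0.776 and 0.489. Every bromhexine library was above every genipin library, and genipin replicate 1 was above the other 3 genipin libraries. The log2 fold change of cyp-35B2 was 6.43 ± 0.6 (adjusted p = 2.1e-06), and 8.05 ± 0.25 without genipin replicate 1. For cyp-35B3 the bromhexine libraries held 349.4, 399.4, 331.8 and 380.8 CPM and the genipin libraries 10.5, 0.937, 0.653 and 0.35, while all 4 DMSO libraries had 0 counts. Its log2 fold change was 6.9 ± 0.6 (adjusted p = 6.34e-06), and 9.15 ± 0.18 without genipin replicate 1.

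The largest of these increases was that of Y73C8C.10 (chromosome V, start 3125496, end 3127770), 1332 bases from tat-6. Its level was 217.3, 247.1, 224.8 and 286.7 CPM with bromhexine and 6.78, 0.0426, 0.0933 and 0.117 CPM with genipin, and its DMSO libraries held 0 to 0.188 CPM. Genipin replicates 2 to 4 stood within the DMSO range, and replicate 1 was above all DMSO libraries. The log2 fold change of Y73C8C.10 was 7.15 ± 0.59 (adjusted p = 4.42e-07) and was 11.4 ± 0.24 without that library. The levels of tat-6 were 130.8, 137.6, 109.2 and 127.9 CPM with bromhexine and 4.5, 0.213, 0.0467 and 0.0389 CPM with genipin (6.75 ± 0.55, or 10.24 ± 0.21 without genipin replicate 1). The most abundant of the set was T10B5.8 (chromosome V, start 1842044, end 1844807), with 972.3, 1117.7, 1003.4 and 1184.3 CPM against 34.6, 2.6, 2.99 and 1.87 CPM (6.68 ± 0.68, adjusted p = 5.63e-06, or 8.76 ± 0.14 without genipin replicate 1). R09E12.9 held 440.6 to 570.6 CPM against 0.747 to 17.5 CPM, and R13D11.4 held 273.3 to 377.5 CPM against 0.724 to 11.8 CPM. Their log2 fold changes were 6.71 and 6.36, or 9.16 and 7.92 without genipin replicate 1. The same pattern on a lower level was seen for H25K10.4 (77.8 to 106.9 against 0.256 to 2.63 CPM) and E02C12.10 (39.3 to 59.3 against 0 to 1.78 CPM), with 6.71 and 6.56, or 8.19 and 9.25 without that library. F38C2.1 had 8.86 to 10.2 CPM with bromhexine, 0.579 CPM in genipin replicate 1 and 0 counts in the other 3 genipin libraries, at least 224-fold higher than those 3 over a floor of 3 counts for the group.

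**Figure D2:**
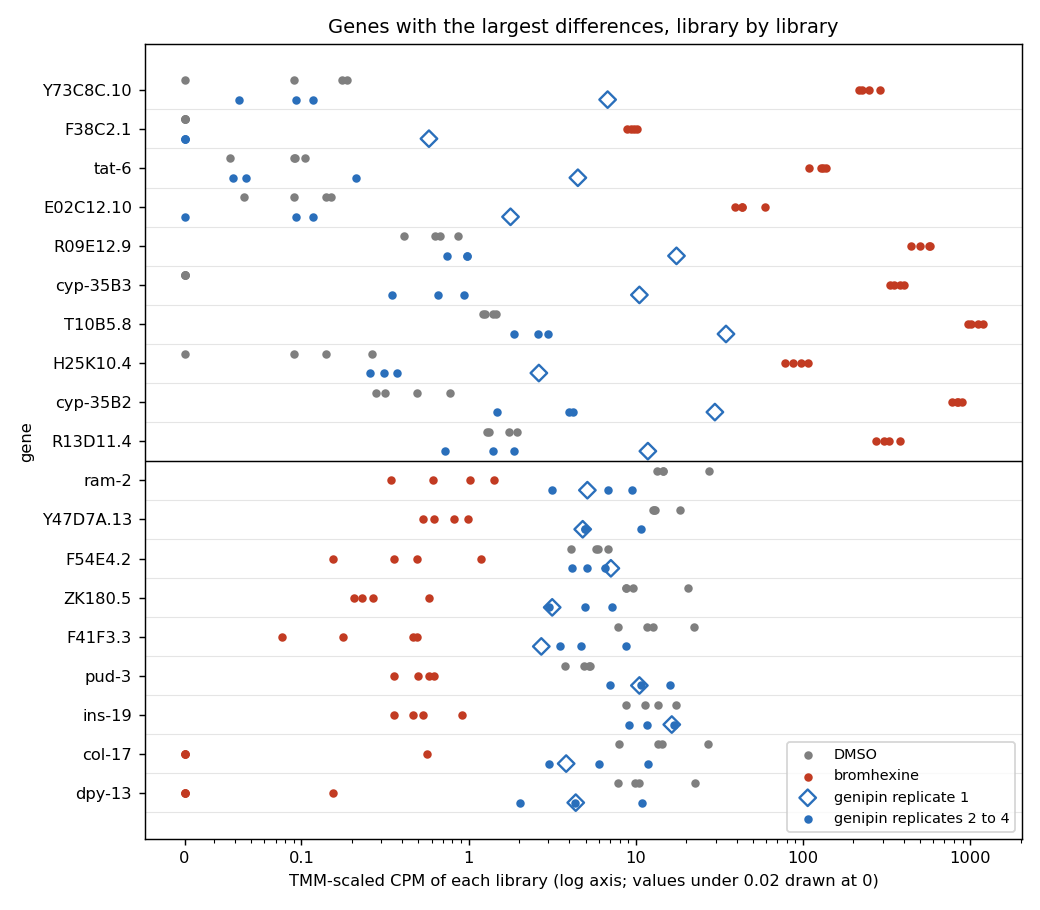
TMM-scaled CPM of each library (log axis, values under 0.02 drawn at 0) for the 10 genes named for the largest increases (above the line) and 9 of the 10 named for the largest decreases, both ranked without genipin replicate 1 and leaving out 1 copy of pud-2.2, with DMSO in grey, bromhexine in red and genipin in blue. For all 10 increases genipin replicate 1, drawn as an open diamond, is the highest genipin library.

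Genipin replicate 1 stood apart in the genes that bromhexine raised most. Among 28 genes at least 32-fold higher in bromhexine than in genipin replicates 2 to 4, chosen without its values, replicate 1 lay a median of 3.2% of the way from the other genipin libraries to the bromhexine mean, with quartiles of 2.75% and 3.73%. The rule gave 29 genes, and 1 was left out after its values were seen: a copy of pud-2.2, which can share reads with a near-identical copy and put replicate 1 at 528%. Replicate 1 lay above 0 in every one of the 28, from 1.54% to 6.21%. The medians of replicates 2, 3 and 4 were -0.0204%, 0.0916% and -0.0529%, but the mean of their positions is 0 in every gene by construction. The genes were also chosen as low in those replicates, so these medians cannot show that any of them lacks an offset. The same choice can itself place replicate 1 above 0, by an amount that was not tested. On the first principal component genipin replicate 1 lay at -14.56 and replicate 2 at -13.84. The cause of the offset of replicate 1 was not tested.

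**Figure D3:**
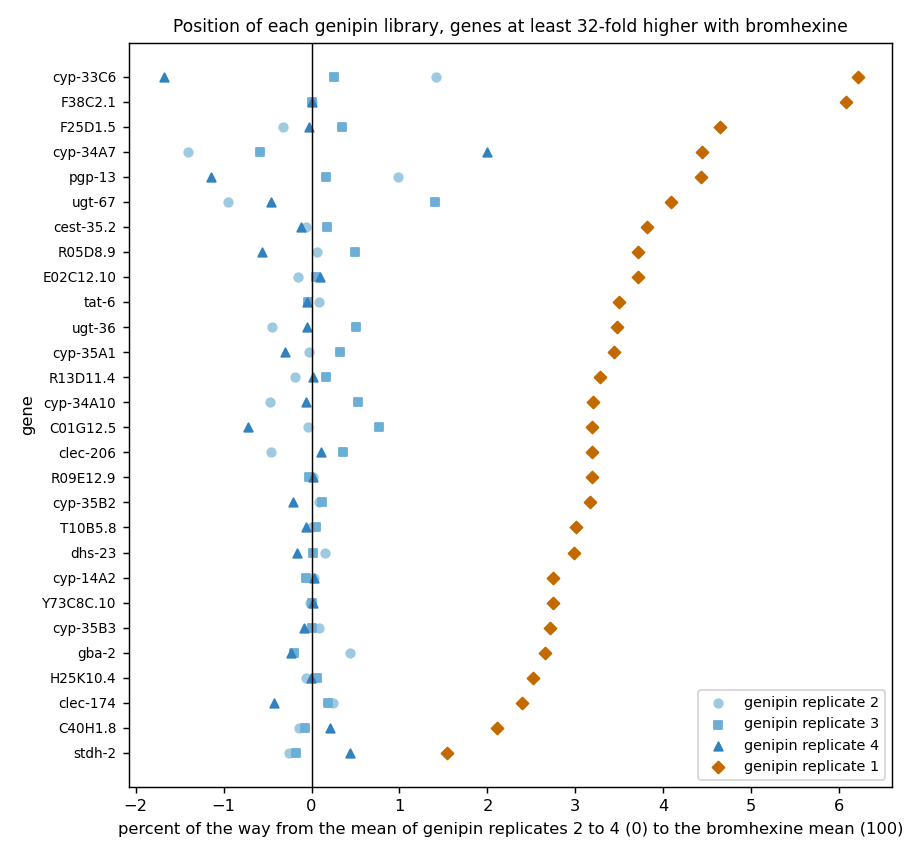
Position of each genipin library between the mean of genipin replicates 2 to 4 (0) and the bromhexine mean (100), in percent, for 28 of the 29 genes at least 32-fold higher with bromhexine (a copy of pud-2.2, at 528% in replicate 1, is not drawn). Replicate 1 lies at 1.54% to 6.21% in the 28 genes, and the other 3 average 0 in each gene by construction.

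The genes were then read by function, in lists whose counts stand against the 15% of all tested genes called higher and the 19.5% called lower. In RNA of whole worms, fewer cells of a type and less RNA per cell cannot be told apart.

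**Figure D4:**
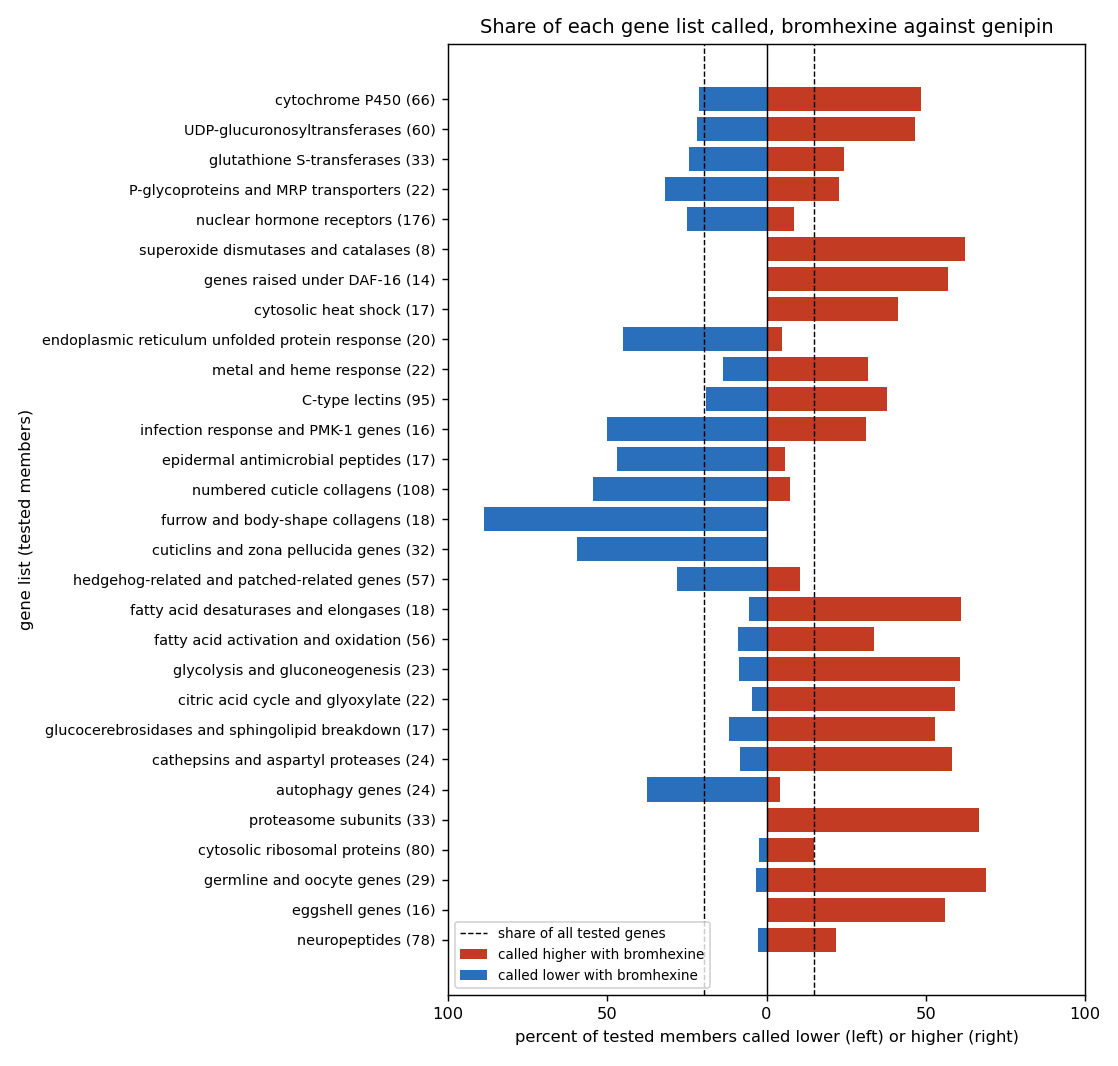
Percent of the tested members of 29 gene lists called lower (left, blue) or higher (right, red) with bromhexine than with genipin, with the number of tested members in brackets. The dashed lines mark the shares of all tested genes, 19.5% lower and 15% higher.

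Among enzymes of xenobiotic metabolism the increases were the larger. For P450 genes and UDP-glucuronosyltransferases the share called lower was close to that of all tested genes. Of 66 tested cytochrome P450 genes, 32 (48.5%) were higher and 14 (21.2%) lower, against 15% and 19.5% of all tested genes. Without genipin replicate 1 the counts were 30 and 14. With all libraries, 26 of the increases and 5 of the decreases were at least 2-fold, and the median log2 fold change was 0.38. For cyp-34A9 the bromhexine libraries held 146.7, 155.1, 160.9 and 172.8 CPM and the genipin libraries 24.3, 18.9, 19.6 and 17.5 CPM, without overlap (2.99 ± 0.11, adjusted p = 2.18e-10). For cyp-35C1 they held 268.3, 304.7, 314.5 and 316.3 CPM and 40.5, 29.2, 31.4 and 21.7 CPM, again without overlap (3.3 ± 0.13, adjusted p = 2.91e-10). The level of cyp-35A5 was 149.6 to 183.9 CPM against 14.2 to 20.7 CPM and that of cyp-35A2, often used as a marker of xenobiotic response, 220.1 to 247.7 CPM against 49.5 to 73.9 CPM (2.01 ± 0.12). In 23 of the 32 P450 genes called higher, genipin replicate 1 was the highest genipin library.

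Of 60 UDP-glucuronosyltransferases, which attach sugars to foreign compounds, 28 (46.7%) were higher and 13 (21.7%) lower, against 15% and 19.5% of all tested genes. The median was 0.30, and the counts were 31 and 12 without genipin replicate 1. An example is ugt-36, with 40.6, 44, 49.8 and 60.9 CPM against 2.32, 0.426, 0.886 and 0.622 CPM (5.54 ± 0.31, adjusted p = 7.24e-09), or 6.25 ± 0.23 without genipin replicate 1. All 4 bromhexine libraries of ugt-36 lay above genipin, whose replicate 1 was the highest of its group. The genes ugt-14 and ugt-9, 8283 bases apart on chromosome V, stood at 30.6 to 40.5 and 36.8 to 52.6 CPM with bromhexine and at 1.2 to 2.59 and 1.53 to 4.15 CPM with genipin. The short-chain dehydrogenase gene dhs-23 reached 157.1 to 193.8 CPM against 1.36 to 6.91 CPM (5.92 ± 0.32, adjusted p = 5.03e-09), or 6.75 ± 0.16 without genipin replicate 1. Over its family of 29 tested genes 7 (24.1%) were higher and 5 (17.2%) lower. The decreases numbered 8 without bromhexine replicate 4 and 3 without bromhexine replicate 1 or genipin replicate 3.

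The glutathione S-transferases split evenly, 8 (24.2%) higher and 8 (24.2%) lower of 33, with a median of -0.12. The largest fitted increase of this family was gst-5, at 389.7, 449.6, 379.7 and 419.2 CPM against 46.9, 25.4, 41.2 and 27.2 CPM (3.54 ± 0.21, adjusted p = 9.77e-09), with no overlap. The reporter gene of SKN-1 activity, gst-4, went the other way, at 18.6, 25.2, 17.2 and 17 CPM against 36.7, 24.7, 34.8 and 29.8 CPM (-0.69 ± 0.16, adjusted p = 0.00498), with bromhexine replicate 2 above genipin replicate 2. The level of gst-10 was lower too, 13.8 ± 1.41 CPM against 24.4 ± 2.05 CPM (mean ± SD, n = 4; -0.82 ± 0.1). Of 12 SKN-1 reporter genes 3 were higher and 4 lower, and skn-1 itself was not called (0.09 ± 0.06, adjusted p = 0.273).

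Among 22 ABC transporters of the P-glycoprotein and MRP families 5 were higher and 7 lower. The X-linked neighbours pgp-13 and pgp-14, 611 bases apart, were higher together. The level of pgp-13 was 139.9, 164.3, 126.5 and 152.0 CPM against 10.3, 5.45, 4.29 and 2.45 CPM (4.7 ± 0.27, adjusted p = 9.21e-09), and that of pgp-14 was 22 to 38.8 CPM against 2.68 to 7.31 CPM (2.76 ± 0.26). In contrast pgp-8, which is also X-linked, was lower, at 2.57, 4.94, 4.1 and 5.7 CPM against 19, 21.6, 18.3 and 17.7 CPM (-2.13 ± 0.21, adjusted p = 4.25e-06). Nuclear hormone receptors, the family that includes the worm's xenobiotic sensors, gave 15 genes higher and 44 lower of 176, with a median of -0.13. The decreases numbered 29 without bromhexine replicate 3 and 25 without genipin replicate 3, and the increases 9 without bromhexine replicate 2 and 9 without genipin replicate 4. The receptor nhr-8, known for its part in resistance to toxins, was called higher (0.4 ± 0.13, adjusted p = 0.0248), with the groups overlapping through genipin replicate 1 (21.5 CPM), and was not called without bromhexine replicate 2 (adjusted p = 0.0762), genipin replicate 2 (adjusted p = 0.0607) or genipin replicate 4 (adjusted p = 0.0735). The aryl hydrocarbon receptor gene ahr-1 was at 0.257 to 0.49 and 0.117 to 1.12 CPM and was not called (adjusted p = 0.49). Among the receptors called lower was nhr-2, at 29.1 to 37.6 CPM against 50.5 to 64.1 CPM (-0.85 ± 0.1).

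Calls among cathepsins and aspartyl proteases, and among genes of sphingolipid breakdown, were mostly increases with bromhexine. Summed intestine markers stood at 68200 to 76700 CPM against 47500 to 62000 CPM with genipin, most of it from the yolk protein genes vit-2 and vit-6. Of the 5 tested intestine markers 2 were called higher and none lower. The part of the intestine in the detoxification, lysosome and metabolism lists was not tested. Of 24 cathepsins and aspartyl proteases 14 were higher and 2 lower, with a median log2 fold change of 0.54, and the same counts held without genipin replicate 1. The cathepsin B gene cpr-4 stood at 1369.3, 1614.2, 1197.9 and 1331.9 CPM against 217.7, 151.7, 177.3 and 160.0 CPM, with no overlap (2.96 ± 0.2, adjusted p = 3.87e-08). Its relatives cpr-5 (178.7 to 214.2 against 48.8 to 58.6 CPM) and cpr-3 (72.8 to 85.7 against 23.9 to 31.7 CPM) were higher as well. The mean log2 level of the list, as log2(CPM + 0.5), was 7.49 to 7.64 in the bromhexine libraries and 6.76 to 6.95 in the genipin libraries, next to 6.7 to 6.99 with DMSO.

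The worm has 4 homologs of glucocerebrosidase, the lysosomal enzyme that splits glucosylceramide, and they moved apart. For gba-2 the bromhexine libraries held 85.1, 95.1, 101.0 and 130.7 CPM and the genipin libraries 3.83, 1.58, 0.933 and 0.894 CPM (5.84 ± 0.3, adjusted p = 3.73e-09), or 6.5 ± 0.22 without genipin replicate 1. For gba-1 they held 85.8, 94.2, 73 and 75.5 CPM and 25.9, 21.6, 22.5 and 20.3 CPM (1.86 ± 0.13, adjusted p = 7.7e-08). The annotations of gba-1 and gba-2, side by side on chromosome II, share a few bases at their ends, so a small part of their reads could be counted for either. In gba-3 the order was reversed, 8.72, 9.04, 8.77 and 13.2 CPM against 19.3, 20.2, 22.6 and 18.9 CPM (-1.02 ± 0.15, adjusted p = 0.000191), and gba-4 overlapped between the groups and was not called (-0.07 ± 0.12, adjusted p = 0.674). Over the 17 genes of sphingolipid breakdown 9 were higher and 2 lower, among them the cathepsin A homolog ctsa-1.2 at 812.8 to 1177.6 CPM against 201.4 to 299.2 CPM (1.93 ± 0.17). By contrast, 9 of 24 autophagy genes were lower and 1 higher, none at 2-fold. An example is epg-2, an adaptor of aggregate autophagy in embryos, at 88.3 to 162.2 CPM against 187.6 to 251.1 CPM (-0.91 ± 0.15, adjusted p = 0.000444). The gene of HLH-30, the worm's TFEB, was not called (-0.08 ± 0.07, adjusted p = 0.4).

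Calls in fatty acid synthesis and oxidation and in carbon metabolism were mostly increases, while other lists of lipid metabolism were called in both directions. Of 18 fatty acid desaturases and elongases 11 were higher and 1 lower (11 and 1 without genipin replicate 1), with a median of 0.32. The elongase gene elo-6, which acts on branched-chain fatty acids, stood at 324.9, 381.6, 337.0 and 373.1 CPM against 187.4, 122.3, 153.8 and 128.6 CPM (1.26 ± 0.12, adjusted p = 2.8e-06), and genipin replicate 1 was the highest genipin library. The palmitate elongase gene elo-2 held 167.0 to 196.6 CPM against 88.4 to 114.7 CPM and let-767, a reductase of fatty acid elongation, 265.7 to 284.2 CPM against 160.1 to 173.4 CPM. In fatty acid activation and oxidation 19 genes of 56 were higher and 5 lower, for example hacd-1, a hydroxyacyl-CoA dehydrogenase gene, at 201.0, 217.1, 217.1 and 231.6 CPM against 75.1, 59.8, 68.7 and 60.3 CPM (1.72 ± 0.09, adjusted p = 2.57e-09). The enoyl-CoA hydratase gene ech-7 (139.5 to 153.9 against 52.9 to 75.2 CPM) and the acyl-CoA synthetase gene acs-19 (695.6 to 841.0 against 377.1 to 465.9 CPM) did not overlap between the groups either. Of 8 lipases 2 were higher and 3 lower, of 9 intracellular lipid-binding proteins 3 and 2, and of 21 genes of the methionine cycle and phosphatidylcholine synthesis 4 and 6, the latter 3 without bromhexine replicate 2 or 3. Among the lipases the lysosomal gene lipl-5 was higher, at 691.6 to 788.2 CPM against 284.5 to 352.5 CPM (1.25 ± 0.07).

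In glycolysis and gluconeogenesis 14 genes of 23 were higher and 2 lower, and in the citric acid and glyoxylate cycles 13 of 22 and 1. None of these reached 2-fold. The glucose-6-phosphate isomerase gene gpi-1 stood at 282.7, 273.4, 264.1 and 252.5 CPM against 163.7, 161.7, 154.4 and 156.8 CPM (0.75 ± 0.05, adjusted p = 7.1e-08). The gluconeogenic gene pck-2 held 1253.0 to 1549.3 CPM against 825.6 to 1021.1 CPM, and icl-1, the glyoxylate cycle enzyme, 720.9 to 911.8 CPM against 514.4 to 583.4 CPM. The exception in the citric acid cycle was idh-2, at 30 to 39.9 CPM against 51.1 to 69.8 CPM (-0.77 ± 0.11). Of the 7 genes of yolk proteins and their receptor 1 was higher and 1 lower, and the yolk protein gene vit-6 stood at 36445.6, 36568.2, 36042.2 and 40179.3 CPM against 30220.2, 31229.6, 23558.1 and 25290.5 CPM (0.44 ± 0.11, adjusted p = 0.00771). For vit-2 the groups did not overlap, 31765.8 to 36092.7 CPM against 23704.7 to 30455.2 CPM, but the adjusted p was 0.0547 (0.28 ± 0.11). It was 0.0419 without DMSO replicate 2 and 0.0278 without genipin replicate 2. The uncoupling protein gene ucp-4, the worm's relative of the mammalian protein that genipin is known to inhibit, held 32.9, 37.3, 29.3 and 30 CPM with bromhexine and 28.8, 25.4, 28.1 and 27.8 CPM with genipin. The groups of ucp-4 did not overlap, though by a margin smaller than the spread within either, and the difference was not called (0.23 ± 0.09, adjusted p = 0.0518). It was called without DMSO replicate 2 (adjusted p = 0.0483), bromhexine replicate 3 (adjusted p = 0.0406) or bromhexine replicate 4 (adjusted p = 0.0316).

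Stress genes did not move as 1 group. Of 8 superoxide dismutases and catalases 5 were higher and none of the 8 was called lower, with a median of 0.61. The cytosolic enzyme sod-1 stood at 277.3, 285.7, 288.3 and 293.7 CPM against 177.7, 174.1, 181.5 and 172.8 CPM (0.7 ± 0.05, adjusted p = 5.9e-08), the mitochondrial sod-3 at 4.31, 3.92, 4.14 and 3.78 CPM against 1.07, 1.19, 1.59 and 1.32 CPM (1.64 ± 0.18, adjusted p = 1.33e-05), and the peroxisomal catalase ctl-2 at 155.1 to 173.1 CPM against 67.6 to 89 CPM. Among 14 genes known to be raised by the transcription factor DAF-16, 8 were higher and none was lower, sod-3 and ctl-2 included, and among 9 known to be lowered 1 was higher and 5 lower. The metallothionein gene mtl-1 held 104.2 to 114.8 CPM against 34.3 to 49.5 CPM and the lysozyme gene lys-7 748.2 to 1059.5 CPM against 202.1 to 313.4 CPM. On the lowered side dod-24 stood at 5.54, 5.34, 9.22 and 10.4 CPM against 30.9, 31.6, 36.6 and 33.2 CPM (-2.11 ± 0.21, adjusted p = 3.64e-06), and dod-22 and dod-17, also on chromosome IV, were lower too (-2.59 and -1.85). The gene dod-22 lies 24019 bases from dod-24. The daf-16 transcript was slightly higher (0.32 ± 0.08, adjusted p = 0.00591), with overlapping groups.

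Of 22 genes of the metal and heme response 7 were higher and 3 lower. The cadmium-responsive genes cdr-1 and cdr-4 stood at 99.6 ± 9.33 and 70.2 ± 8.96 CPM (mean ± SD, n = 4) with bromhexine, against 9.02 ± 3.43 and 11.4 ± 1.57 CPM with genipin. The heme-signalling gene hrg-7 held 168.1 to 195.4 CPM against 38.2 to 54.6 CPM (2.02 ± 0.11, adjusted p = 6.7e-09). In the cytosolic heat shock list 7 of 17 were higher and none lower, and the count was 4 without bromhexine replicate 1 and 3 without bromhexine replicate 3. The inducible chaperone gene hsp-70 held 50.5, 40.3, 40.2 and 34.4 CPM against 22.3, 25.4, 24.9 and 19.1 CPM (0.85 ± 0.12, adjusted p = 9.53e-05). The small heat shock gene hsp-16.2 was at 15.9 ± 0.73 CPM and 12.1 ± 2.97 CPM (mean ± SD, n = 4), overlapping, with an adjusted p of 0.0447 that was between 0.053 and 0.133 when any 1 of 9 libraries was left out, genipin replicate 1 among them (0.0803). The endoplasmic reticulum unfolded protein response leaned the other way, 9 genes of 20 lower and 1 higher (8 and 0 without genipin replicate 1), none at 2-fold. Genipin replicate 3 and bromhexine replicate 4 were the highest of their groups in all 9. Examples are uggt-1, the glycoprotein folding sensor, at 102.0 to 149.7 CPM against 177.8 to 216.5 CPM, and dnj-27, a disulfide reductase of this compartment, at 38.7 to 52.9 CPM against 63.4 to 87.3 CPM. The gene of ATFS-1, the mitochondrial stress factor, was higher by a small step (0.27 ± 0.07, adjusted p = 0.00589).

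Immune genes were called in both directions. Of 95 C-type lectins 36 (37.9%) were higher and 18 (18.9%) lower, against 15% and 19.5% of all tested genes, so their share called lower was close to the general one. Their median was 0.31, and the counts were 33 and 16 without genipin replicate 1. On chromosome IV, clec-174 stood at 45.7, 56.6, 57.4 and 45 CPM against 2.23, 1.15, 1.12 and 0.816 CPM (5.27 ± 0.24, adjusted p = 8.76e-10). The more abundant clec-83 held 81.3 to 91 CPM against 38.4 to 40.5 CPM. Among 16 infection response and PMK-1 genes 5 were higher and 8 lower. The infection response gene irg-6 was at 120.1, 136.0, 140.1 and 154.9 CPM against 20.3, 14, 14.2 and 12 CPM (3.19 ± 0.13, adjusted p = 2.91e-10) and irg-4 at 142.7 to 167.1 CPM against 49.3 to 72.7 CPM. In the opposite direction C17H12.8 stood at 57.6, 75.3, 91.2 and 109.2 CPM against 275.4, 243.9, 263.5 and 246.8 CPM (-1.62 ± 0.14, adjusted p = 9.64e-07). The transcript of the p38 kinase gene pmk-1 itself was lower, at 21.2 to 28.6 CPM against 32 to 40.4 CPM (-0.62 ± 0.1, adjusted p = 0.000348).

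Of 17 epidermal antimicrobial peptides 8 were lower and 1 higher, with a median of -0.66. The count of decreases was 5 without bromhexine replicate 1 and 5 without genipin replicate 3. The peptide gene nlp-33 held 1.8, 2, 1.51 and 2.06 CPM against 4.01, 5.11, 4.57 and 4.9 CPM (-1.33 ± 0.16, adjusted p = 3.04e-05), and the caenacin gene cnc-4 6 to 7.91 CPM against 11.1 to 16.7 CPM. Among 32 lysozymes and caenopores 3 were higher and 10 lower, with spp-12 higher at 4.05 to 8.1 CPM against 0.383 to 0.544 CPM and spp-17 lower at 144.1 to 189.7 CPM against 240.6 to 375.0 CPM.

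Most tested genes of the 3 lists of cuticle collagens and cuticlins were lower with bromhexine. Of 108 numbered cuticle collagens 59 were lower and 8 higher, 39 of the decreases at least 2-fold, with a median log2 fold change of -0.81. Of 18 collagens that form the furrows or set body shape 16 were lower and none higher (median -1.23), and of 32 cuticlins and zona pellucida genes 19 were lower and none higher (median -0.94). Without genipin replicate 1 the counts of lower genes were 58, 16 and 17. The collagen gene dpy-13 (chromosome IV, start 4235614, end 4236710), named for the short, stout body of its mutants, held 7.82, 22.5, 9.95 and 10.4 CPM with DMSO and 4.37, 4.3, 10.9 and 2.02 CPM with genipin. In bromhexine it had 3 counts in all, in replicate 1, so the ratio of genipin to bromhexine was 157 with an exact 95% interval of 53.4 to 764 that covers counting error only (adjusted p = 4.32e-05). For col-17 the genipin libraries held 3.83, 6.05, 11.9 and 3.03 CPM and the bromhexine libraries 0.564, 0, 0 and 0 CPM (-5.59 ± 0.8, adjusted p = 0.000134). Both groups of libraries were fully separate for dpy-13 and col-17, and genipin replicate 3 was the highest genipin library in both.

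Other body-shape collagens were lower too: dpy-5 stood at 0.103, 0.134, 0.0445 and 0.153 CPM against 2.76, 2.05, 6.11 and 1.09 CPM (-4.69 ± 0.69, adjusted p = 0.000152), and dpy-4 at 0.0891 to 0.382 CPM against 1.87 to 7.74 CPM. The cuticlin gene cut-2 held 0.103 to 0.668 CPM against 2.27 to 6.53 CPM, with cutl-8 (1.47 to 3.1 against 4.81 to 11.6 CPM) and cutl-16 (3.83 to 5.54 against 11 to 17.5 CPM) lower as well. The level of col-98 was 115.9, 133.8, 110.9 and 157.0 CPM against 236.1, 240.8, 246.7 and 236.2 CPM (-0.89 ± 0.1, adjusted p = 1.04e-05) and that of col-42 188.8 to 240.0 CPM against 323.9 to 339.1 CPM. The adult-specific collagen col-19 was at 207.4 to 396.1 CPM and 243.7 to 274.3 CPM, overlapping and not called (0.14 ± 0.15, adjusted p = 0.489). Neither was col-140 (1233.8 to 1851.4 and 1527.8 to 1597.2 CPM, adjusted p = 0.378), which, of the 12 fits with 1 library left out, was called lower in the 1 without bromhexine replicate 4 (-0.28, adjusted p = 0.0113). Among the 8 collagens that were higher was col-36, at 7.95, 8.15, 5.26 and 7.68 CPM against 0.535, 0.256, 0.233 and 0.233 CPM (4.52 ± 0.43, adjusted p = 2.67e-06).

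Summed epidermis markers ran from 217 to 410 CPM with bromhexine and from 267 to 287 CPM with genipin, most of it from the collagen gene col-19. Of the 4 tested epidermis markers 2 were called lower and none higher. The part of the epidermis in the cuticle lists was not tested. Genipin replicate 3 was the highest genipin library in 42 of the 59 collagens called lower, in 14 of the 16 furrow and body-shape collagens and in 16 of the 19 cuticlins and zona pellucida genes. Bromhexine replicate 4 was the highest of its group in 31, 9 and 13 of them. The mean log2(CPM + 0.5) of the furrow and body-shape list was 1.59, 1.49, 1.58 and 1.82 with bromhexine, 2.63, 2.68, 3.28 and 2.51 with genipin and 2.69, 3.41, 3.37 and 3 with DMSO. Bromhexine thus lay below both other groups, which overlapped. Of 57 hedgehog-related and patched-related genes, many of which act in the epidermis, 16 were lower and 6 higher, and the increases numbered 3 without bromhexine replicate 2. The groundhog gene grd-5 held 5.79 to 8.26 CPM against 11.9 to 14.7 CPM, whereas ptr-22 was higher, at 26.5, 30, 26.2 and 34.9 CPM against 4.1, 4.01, 3.55 and 3.19 CPM (2.99 ± 0.16, adjusted p = 4.08e-09).

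**Figure D5:**
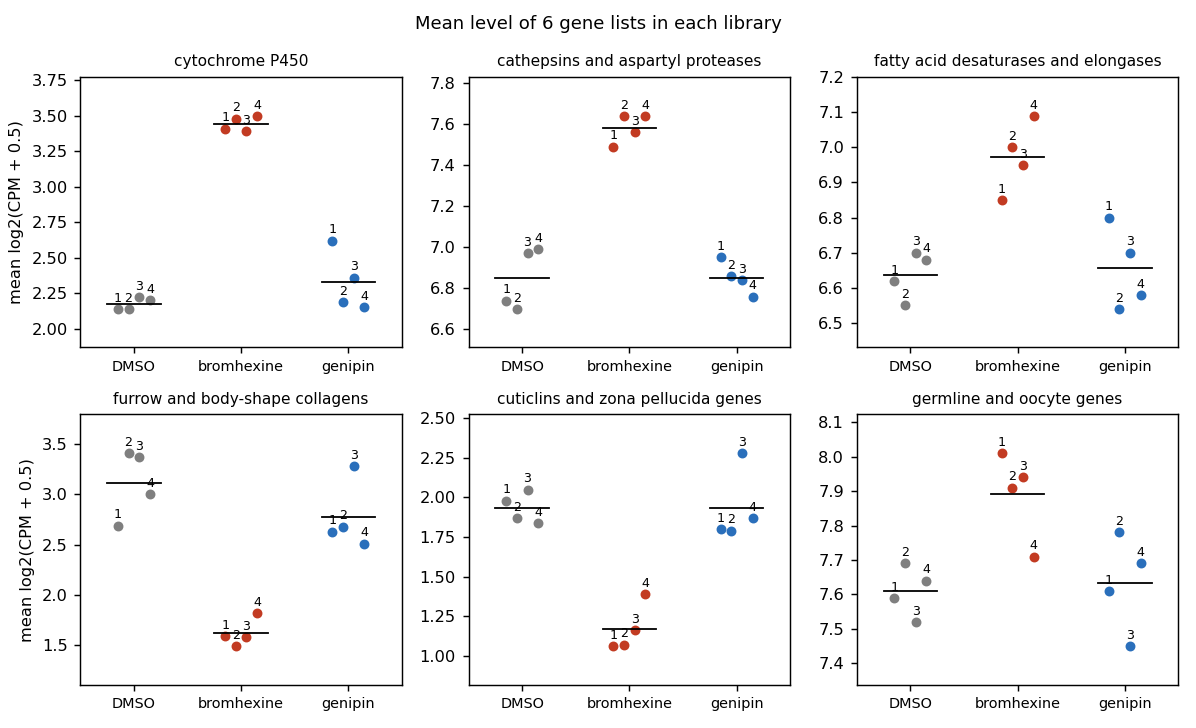
Mean log2(CPM + 0.5) of 6 gene lists in each library, numbered by replicate, with the group mean as a line. Furrow and body-shape collagens lie at 1.49 to 1.82 with bromhexine and 2.51 to 3.28 with genipin, and germline genes at 7.71 to 8.01 and 7.45 to 7.78, where bromhexine replicate 4 and genipin replicate 2 overlap.

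Outside the cuticle, an insulin-like peptide and the pud genes were among the genes named for the size of their decrease. The level of ins-19 was 0.462, 0.356, 0.535 and 0.917 CPM with bromhexine and 16.4, 9.12, 17 and 11.7 CPM with genipin, next to 17.5, 8.75, 13.6 and 11.3 CPM with DMSO (-4.53 ± 0.32, adjusted p = 6.68e-08). Every bromhexine library was below every library of the other groups. Of 20 tested insulin-like peptides 5 were lower and 3 higher, ins-34 (-1.24) and ins-37 (-1.55) among the lower, and the decreases numbered 3 when bromhexine replicate 2, 3 or 4 or genipin replicate 3 or 4 was left out. The pud genes, named for proteins that are more abundant in daf-2 mutants, whose insulin receptor works poorly, gave 4 calls among 6 tested, all lower. Without genipin replicate 1 the calls were 4 lower and 1 higher. Near-identical copies, between which reads can be divided, count as separate members here. The pud-3 libraries stood at 0.359, 0.623, 0.579 and 0.497 CPM against 10.5, 6.99, 15.9 and 10.8 CPM and 5.3, 4.89, 3.79 and 5.22 CPM with DMSO (-4.4 ± 0.27, adjusted p = 1.74e-08). Genipin lay above DMSO here without overlap, but that difference was not called (1.2 ± 0.21, adjusted p = 0.0724). The near-identical copies of pud-2.2, between which counting can divide reads, were summed and stood at 16.4 to 25.7 CPM with bromhexine, 104.7 to 141.9 CPM with genipin and 87.5 to 95.9 CPM with DMSO (-2.66 ± 0.12, adjusted p = 9.355e-10). Other genes named for the size of their decrease were at similar low levels: F41F3.3 (0.0764 to 0.49 against 2.72 to 8.77 CPM), ZK180.5 (0.205 to 0.579 against 3.03 to 7.23 CPM), Y47D7A.13 (0.534 to 0.994 against 4.81 to 10.7 CPM), F54E4.2 (0.154 to 1.18 against 4.16 to 7.09 CPM) and ram-2, named for the ray morphology of males (0.344 to 1.42 against 3.15 to 9.52 CPM).

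Genes of the germ line, the eggshell and the proteasome were higher by small steps that depended on single libraries. Of 29 germline and oocyte genes 20 were higher and 1 lower, all under 2-fold. In 5 of the 29 the 4 bromhexine libraries lay above the 4 genipin libraries, which held for 11.2% of all tested genes. Bromhexine replicate 4 was the lowest of its group in all 20 genes called higher, genipin replicate 3 the lowest genipin library in all 20, and genipin replicate 2 the highest in 19. The count of increases was 11 without genipin replicate 1, 9 without genipin replicate 3, and 6, 12 and 10 without bromhexine replicates 1, 2 and 3. The germline stem cell gene sygl-1 held 167.1, 153.4, 152.3 and 134.8 CPM against 103.6, 126.2, 96.1 and 111.3 CPM (0.47 ± 0.09, adjusted p = 0.000902). Of 16 eggshell genes 9 were higher, with egg-3 at 196.4 to 259.8 CPM against 150.7 to 190.9 CPM, and the count was 5 and 4 without genipin replicates 1 and 3, and 3, 4 and 4 without bromhexine replicates 1, 2 and 3. Of 33 proteasome subunits 22 were higher, none at 2-fold, and without genipin replicate 1 or 3, or bromhexine replicate 1 or 3, the count was 14, 12, 12 and 13. The subunit genes rpn-12 (105.8 to 116.2 against 82.3 to 91.4 CPM) and pas-6 (176.9 to 206.0 against 128.8 to 161.4 CPM) did not overlap between the groups. Of 80 cytosolic ribosomal protein genes 12 (15%) were higher, a share equal to that of all tested genes, and the count was 2 without genipin replicate 1. It was 0 without genipin replicate 3, 2, 3 and 6 without bromhexine replicates 1, 3 and 4, and 7 without DMSO replicate 4. Of 44 tested sperm genes 6 (13.6%) were higher and 3 (6.82%) lower, against 15% and 19.5% of all tested genes, with a median of 1.45. With 1 library left out the increases among sperm genes ran from 2 to 32, the 32 without genipin replicate 2. Summed germline markers ran from 2080 to 2630 CPM with bromhexine and from 1710 to 2230 CPM with genipin, and the part of tissue proportions in these counts was not tested.

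Sarcomere genes were called at close to the shares of all tested genes, and calls of neuropeptide genes were mostly increases. Of 30 sarcomere genes 4 (13.3%) were higher and 6 (20%) lower, against 15% and 19.5% of all tested genes. The body wall myosin gene myo-3 was higher, at 47.9, 49.8, 48.2 and 50.6 CPM against 21.8, 29.3, 19 and 27.6 CPM (1.01 ± 0.15, adjusted p = 0.000146), while the attachment gene unc-97 held 19.7 to 27.4 CPM against 33.1 to 38.4 CPM. Of 78 neuropeptide genes 17 (21.8%, against 15% of all tested genes) were higher and 2 lower, with 10 higher without bromhexine replicate 2, and nlp-51 stood at 3.18, 3.74, 4.28 and 4.24 CPM against 1.38, 1.32, 1.35 and 1.71 CPM (1.42 ± 0.2, adjusted p = 0.000109). All 13 tested genes of the mitochondrial genome went without a call.

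The few genes called for genipin against DMSO were looked up in the direct comparison. Of the 5, 4 were higher with genipin, and 2 genes were called higher when any 1 DMSO library was left out. The lectin gene clec-68 (chromosome IV, start 3926417, end 3929105) was at 0.14, 0.224, 0.0912 and 0.113 CPM with DMSO, 10.8, 7.84, 8.77 and 4.16 CPM with genipin and 53.8, 52.3, 73.2 and 87.3 CPM with bromhexine. The 3 groups did not overlap, and clec-68 was called between genipin and DMSO (5.75 ± 0.42, adjusted p = 9.7e-06) and between bromhexine and genipin (3.08 ± 0.23, adjusted p = 1.39e-07). An intermediate level with genipin was also seen for cyp-35B1, at 2.93, 3.05, 2.51 and 3.42 CPM with DMSO, 15.3, 7.75, 9.52 and 5.09 CPM with genipin and 159.2, 175.7, 166.2 and 165.6 CPM with bromhexine. Its differences were 1.64 ± 0.25 for genipin against DMSO (adjusted p = 0.0317) and 4.16 ± 0.21 for bromhexine against genipin (adjusted p = 3.22e-09). Without genipin replicate 1, genipin against DMSO called cyp-35B1, cyp-35B2 and cyp-35B3 (1.3, 2.78 and, with DMSO at 0 counts, no stated fold). The level of C07D8.6 was 212.1 to 225.9 CPM, 269.5 to 305.8 CPM and 629.0 to 748.2 CPM in the same order of groups, and its genipin call (0.4 ± 0.06, adjusted p = 0.0398) did not hold without genipin replicate 1 (adjusted p = 0.137). The P450 gene cyp-13A5 was lower with either compound, at 26.7, 25, 24.4 and 27.5 CPM with DMSO, 16.4, 13.5, 15.6 and 14 CPM with genipin and 11.7, 11.7, 10.4 and 7.91 CPM with bromhexine. It was called for genipin against DMSO (-0.8 ± 0.12, adjusted p = 0.0237) and again between the compounds (-0.51 ± 0.12, adjusted p = 0.00502). The call against DMSO was lost when DMSO replicate 1, 2, 3 or 4, bromhexine replicate 3 or genipin replicate 2 was left out. The fifth call was 1 of the near-identical copies of hsp-16.48, between which reads can be divided. Summed, the copies stood at 49.8 to 59.0 CPM with DMSO, 33.8 to 63.0 CPM with genipin and 37.5 to 50.2 CPM with bromhexine, with no call in either comparison (adjusted p = 0.9945 and 0.5826).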

How the data were processed

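RNA of whole worms was sequenced in 12 libraries, 4 per group. The authors deposited a table of expected counts per gene, and per the submitters' processing notes FastQC, STAR 2.7.11b and RSEM 1.3.3 were used with the WBcel235 build. Strand use in the counting is not given in the sources used here. Of the values, 2.06% had decimals, and all were rounded to whole numbers. The main test was edgeR 4.0.16 (R 4.3.3): genes were kept by filterByExpr over the 3 groups, scaled by TMM and fitted with the quasi-likelihood model on all 12 libraries, which share 1 estimate of the spread. Bromhexine was contrasted with genipin, and each compound with DMSO, and the fit was repeated on 11 libraries without genipin replicate 1. The standard error is the log2 fold change divided by the root of the F statistic. Gene positions come from Ensembl release 115, in which all 46926 IDs were found. Genes were named by size (10 increases and 10 decreases, ranked by the log2 fold change without genipin replicate 1, with a mean of at least 5 CPM in the higher group, called with and without genipin replicate 1 and with no overlap), as up to 3 members of smallest p per list, or singled out by name. The members and lists were chosen with earlier results of these data known, so their counts are a description. Alternatives were DESeq2 1.42.0, limma 3.58.1 voom, other scalings, filters and thresholds, the replicate block, the compared libraries alone and each library left out. The scripts were tested on simulated data. Same-numbered libraries did not deviate together in every pair, so the numbers were not used to pair samples.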

Additional observations from a re-analysis of the deposited data

Results flagged for a closer look

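In 339 groups of 4 libraries, 3 for each gene described, 32 had a highest or lowest library whose gap to the next exceeded Dixon's 95% critical value. For normally spread values that bound flags about 1 group in 20. Groups with several 0 counts and genes ranked without genipin replicate 1 fall outside that setting, so the 32 cannot be set against that rate. Genipin replicate 1 was the high library in 12 of the 32. Its level was 6.78 CPM for Y73C8C.10, 4.5 for tat-6, 17.5 for R09E12.9, 34.6 for T10B5.8 and 11.8 for R13D11.4. It was 29.7 CPM for cyp-35B2, 10.5 for cyp-35B3 and 6.91 for dhs-23. It was 2.63 CPM for H25K10.4, 1.78 for E02C12.10, 0.579 for F38C2.1 and 0.535 for col-36. Bromhexine replicate 4 was high for vit-2 (36092.7 CPM), vit-6 (40179.3 CPM), gba-3 (13.2 CPM) and hlh-30 (89.1 CPM). Other bromhexine libraries were high for col-17 (replicate 1, 0.564 CPM), dpy-13 (replicate 1, 0.154 CPM), ZK180.5 (replicate 3, 0.579 CPM) and gst-10 (replicate 2, 15.9 CPM), and low for col-36 (replicate 3, 5.26 CPM) and hrg-7 (replicate 2, 168.1 CPM). In genipin, replicate 3 was high for Y47D7A.13 (10.7 CPM) and replicate 4 for nlp-51 (1.71 CPM). DMSO replicate 2 was high for Y47D7A.13 (18.3 CPM), ZK180.5 (20.6 CPM), ram-2 (27.3 CPM) and ugt-14 (2.83 CPM). DMSO replicate 1 was low for ctsa-1.2 (151.3 CPM), cyp-34A9 (14.2 CPM), gba-2 (0.733 CPM) and lys-7 (179.5 CPM).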

How the results depend on the processing

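The count of genes called between bromhexine and genipin was 5159 with DESeq2, 4690 with limma voom, 4829 with RLE scaling, 4500 with upper quartile scaling, 4310 with no filter on low counts, 4549 with a filter of 1 CPM in 4 libraries and 4040 with the 8 compared libraries alone (3349 of these without genipin replicate 1). At an adjusted p under 0.01 it was 2457 (855 higher, 1602 lower), and at least 2-fold 1259 (367 higher, 892 lower). With 1 library left out it ran from 3300 to 5622, higher from 1284 to 2534 and lower from 1990 to 3088. Without genipin replicates 1 and 2 together, an alternative chosen after seeing the data, it was 4702, and with near-identical copies summed, also chosen then, 4735. For bromhexine against DMSO the count was 3188 (1295 higher, 1893 lower) at 0.01 and 1412 (382 higher, 1030 lower) at 2-fold, and with 1 library left out 4219 to 6202, higher 1776 to 2837 and lower 2383 to 3365. For genipin against DMSO it was 31 (14 higher, 17 lower) with DESeq2, 2 (1 higher) with limma voom, 17 (9 higher, 8 lower) with no filter, 3 (2 higher) with the compared libraries alone, with and without genipin replicate 1, 2 (2 higher, 0 lower) at 0.01 and 3 (0 lower) at 2-fold. With 1 library left out it ran from 2 to 11, higher from 2 to 9 and lower from 0 to 8. The deviations of same-numbered bromhexine and genipin libraries correlated at -0.036, -0.166, -0.03 and -0.088, and 0 of 4 bromhexine libraries correlated best with its own number. For genipin and DMSO the values were 0.02, 0.306, 0.229 and 0.203, and for bromhexine and DMSO 0.012, -0.109, -0.011 and -0.123, so in no pair of groups were all 4 over 0.1. With the replicate block 4542 genes were called (1971 higher, 2571 lower), no call among the 184 named genes changed, and genipin against DMSO had 2 lower. The median of the insulin-like peptides turned from 0.36 to -0.36 with the filter of 1 CPM, which tests fewer of them. The 2-fold minimum, which drops smaller differences by definition, took the call from 79 of the 184 named genes. Of the 184 named genes 99 kept direction and side of the threshold under every alternative run on them, that minimum included. The sign turned in 3, none of them called before or after: ahr-1 (from -0.58 to 0.15 without genipin replicate 3), col-19 (0.14 to -0.05 without bromhexine replicate 4) and gba-4 (-0.07 to 0.01 without genipin replicate 1). The causes of these changes were not tested. Depth limits genes with few counts in a group, such as dpy-13 with 3 counts in bromhexine.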

Other observations

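The calls were unevenly spread over the chromosomes. Of 1965 tested genes on the X chromosome 32.5% were lower with bromhexine than with genipin and 10% higher, against 17.3% and 15.9% on the autosomes, and the median log2 fold change was -0.21 on X and 0.03 on the autosomes. The share of X genes called lower was 21.9% with no filter on low counts and 36.9% without bromhexine replicate 4, and the share on the autosomes beside them was 11% and 20.2%. At a 2-fold minimum the shares called lower were 8.6% on X and 6.17% on the autosomes, and chromosome II, at 9.12%, lay above X. The X chromosome supplied 13.14% to 15.4% of all counts in the bromhexine libraries and 13.87% to 15.22% in the genipin libraries.

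Chromosome V held the largest share of 2-fold increases, 6.27% of its 2648 tested genes, against 0.596% to 2.77% on chromosomes I to IV and X. Of 145 genes called at least 4-fold higher, 53 (36.6%) lay within 10 kb of another such gene, while 2.94% of the other tested genes lay that close to one. Examples described above are the cyp-35B genes, Y73C8C.10 with tat-6, and pgp-13 with pgp-14.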
